A study of Mus musculus with 6 samples.

Results

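The bulge is the niche at the base of the permanent part of the hair follicle where its stem cells reside, and 8 genes used to mark or maintain these cells were followed here: Cd34, Lhx2, Nfatc1, Foxc1, Postn, Lgr5, Tcf7l1 and Sox9. They were chosen by symbol, as rows of the deposited gene table, and all 8 were found among its 19618 genes. The samples are keratinocytes isolated from the tail skin of mice 4 months old, with 3 libraries from knockout mice and 3 from control mice. Knockout mice carried K14cre, which expresses Cre recombinase from a keratin 14 promoter and so acts in basal epidermal and follicle keratinocytes, with both Gpr161 alleles floxed. Control samples lacked K14cre; 1 was homozygous and 2 were heterozygous for the same floxed allele, so every sample of both groups carried at least 1 floxed allele. Columns are named by genotype and a tag but not by title, so the homozygous control cannot be picked out. The tags are used as library names, the knockout ones being DE679, DE685 and DE688 while DE680, DE684 and DE689 are controls.

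Bulge stem cells stay quiescent for long periods and are activated at the start of each hair cycle to rebuild the lower follicle. Their identity depends on transcription factors (Sox9, Lhx2, Tcf7l1, Nfatc1, Foxc1), and they are recognised by surface proteins (Cd34, Lgr5) and by matrix proteins such as Postn. Hedgehog signals act on the bulge and hair germ; Gpr161, a receptor of the primary cilium, restrains this pathway, and Gli1 is its classical transcriptional target and also marks part of the bulge. Values are counts scaled to a common library total (CPM) after TMM scaling, which corrects for composition; differences are log2 fold changes of knockout over control with their standard error (SE), tested with edgeR across the whole table.

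Estimated counts totalled 17157864 to 25344399 per library. Gpr161 itself read 26.8 (DE679), 33.6 (DE685) and 25.9 CPM (DE688) in knockout libraries and 30.2 (DE680), 32.2 (DE684) and 31.9 CPM (DE689) in control libraries, which is −0.13 on the log2 scale (SE 0.11, adjusted p = 0.553 in edgeR). Whole-gene counts of the target therefore do not check the labels, and the knockout is the set of libraries labelled as such. DE685 and DE684, 1 library per group, carried Y-linked transcripts (3311 and 5291 counts), and the other 4 carried at most 3. Of the basal keratinocyte markers, Krt5 averaged 14815 ± 905 CPM among knockout libraries and 12799 ± 1393 CPM among controls (SD, n = 3 per group), so the labelled cell type carried its defining keratin. The labels do not state that each sample came from a mouse of its own, although genotype sets 1 control apart from the other 2 and Y-linked transcripts set 1 library of each group apart. The p-values measure the spread between these libraries.

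The promoters of 4 members are shown, those of Foxc1 and Postn, which passed an adjusted p under 0.05 in edgeR, and those of Lhx2 and Cd34, which did not. They are RefSeq sequences of GRCm38.p6, 250 bases before to 50 after a transcription start, 5′ to 3′ on the gene's own strand. Of the 8 members, 5 matched the promoter table by symbol, with 7 promoters in all; Nfatc1, Lgr5 and Sox9 did not. The Foxc1 promoter is chr13:31806396-31806695 and that of Postn is chr3:54360857-54361156. The first of the 2 Lhx2 promoters is chr2:38339031-38339330, and that of Cd34 is chr1:194938571-194938870. All 4 are on the plus strand. Capitals mark the matches described after the sequences.
Foxc1: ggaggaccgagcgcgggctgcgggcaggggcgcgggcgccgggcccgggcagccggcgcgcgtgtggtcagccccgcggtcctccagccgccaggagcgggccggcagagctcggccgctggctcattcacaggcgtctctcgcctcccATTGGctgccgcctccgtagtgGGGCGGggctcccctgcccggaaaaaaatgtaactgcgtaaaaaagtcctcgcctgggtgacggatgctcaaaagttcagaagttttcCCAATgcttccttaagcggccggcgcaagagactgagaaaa
Postn: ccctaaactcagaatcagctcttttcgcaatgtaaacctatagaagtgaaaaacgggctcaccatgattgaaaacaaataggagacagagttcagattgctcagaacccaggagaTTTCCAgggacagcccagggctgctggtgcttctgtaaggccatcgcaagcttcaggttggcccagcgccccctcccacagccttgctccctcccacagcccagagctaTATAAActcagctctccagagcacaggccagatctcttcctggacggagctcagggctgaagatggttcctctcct
Lhx2: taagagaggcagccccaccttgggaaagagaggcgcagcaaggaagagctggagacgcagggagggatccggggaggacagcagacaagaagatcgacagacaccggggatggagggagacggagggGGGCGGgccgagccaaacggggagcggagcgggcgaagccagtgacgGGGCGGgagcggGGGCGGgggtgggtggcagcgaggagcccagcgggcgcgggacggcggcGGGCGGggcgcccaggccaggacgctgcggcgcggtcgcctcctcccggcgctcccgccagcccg
Cd34: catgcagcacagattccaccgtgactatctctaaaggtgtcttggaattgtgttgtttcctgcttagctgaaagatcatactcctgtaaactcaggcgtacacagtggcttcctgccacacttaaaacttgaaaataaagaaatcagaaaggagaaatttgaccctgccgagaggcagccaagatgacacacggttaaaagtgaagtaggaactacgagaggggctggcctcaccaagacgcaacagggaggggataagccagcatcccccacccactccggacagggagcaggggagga

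Both strands were searched for GACCACCCA, the core that GLI factors bind, and none of the 7 promoters of members held it; 0.253% of the 32851 promoters in the table did. Foxc1, a member that rose, has a GC-rich promoter (67.3% G and C, against a median of 52.7% over all promoters), with CCAAT boxes (searched as CCAAT) starting 101 bases before and 9 after the start and a GC box (GGGCGG) 79 bases before it. Postn, which also rose, has a promoter of another kind, with 53.0% G and C, a TATA box (TATAAA) 26 bases before the start and an NFAT core (TGGAAA, here as TTTCCA) 135 bases before it. The Lhx2 promoter is the richest of the 4 in G and C (74.7%) and holds 4 GC boxes. None of the searched letters occurred in the Cd34 promoter (50% G and C). Over all promoters, CCAAT was found in 37.4%, GGGCGG in 35.7%, TGGAAA in 21.4% and TATAAA in 13.6%. Further cores searched were ATCAAAG for TCF factors (3.73% of promoters), GTAAACA for forkhead factors (3.65%), TAATTA for homeodomain factors (5.29%) and AACAAT for SOX factors (10.7%). Of these 4 cores, only AACAAT occurred in a promoter of a member, 165 bases before the other start of Postn. No motif searched occurred in all 7 promoters, and a match is a string of letters, not a site shown to be bound.

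Across the 8 bulge genes, 3 rose in the knockout: Nfatc1 1.93-fold, Postn 1.68-fold and Foxc1 1.59-fold. In the whole table, 1.6% of 15422 genes tested passed the threshold of an adjusted p under 0.05, and 1.24% passed it and were higher. The other 5 did not pass; Lgr5, Sox9, Lhx2 and Tcf7l1 had positive fold changes and Cd34 a negative one. All 8 passed the filter on low counts, and 6 had an unadjusted p under 0.05, as had 19% of all genes tested. By sign, 7 of the 8 were higher, against 49.3% of all genes. The median log2 fold change was 0.57 over the members and −0.0036 over all genes tested. The members were listed with earlier results of these data known, so their count is a description and not a test of the bulge as a whole. In bulk RNA, more cells of a type and more RNA per cell cannot be told apart.

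**Figure D1:**
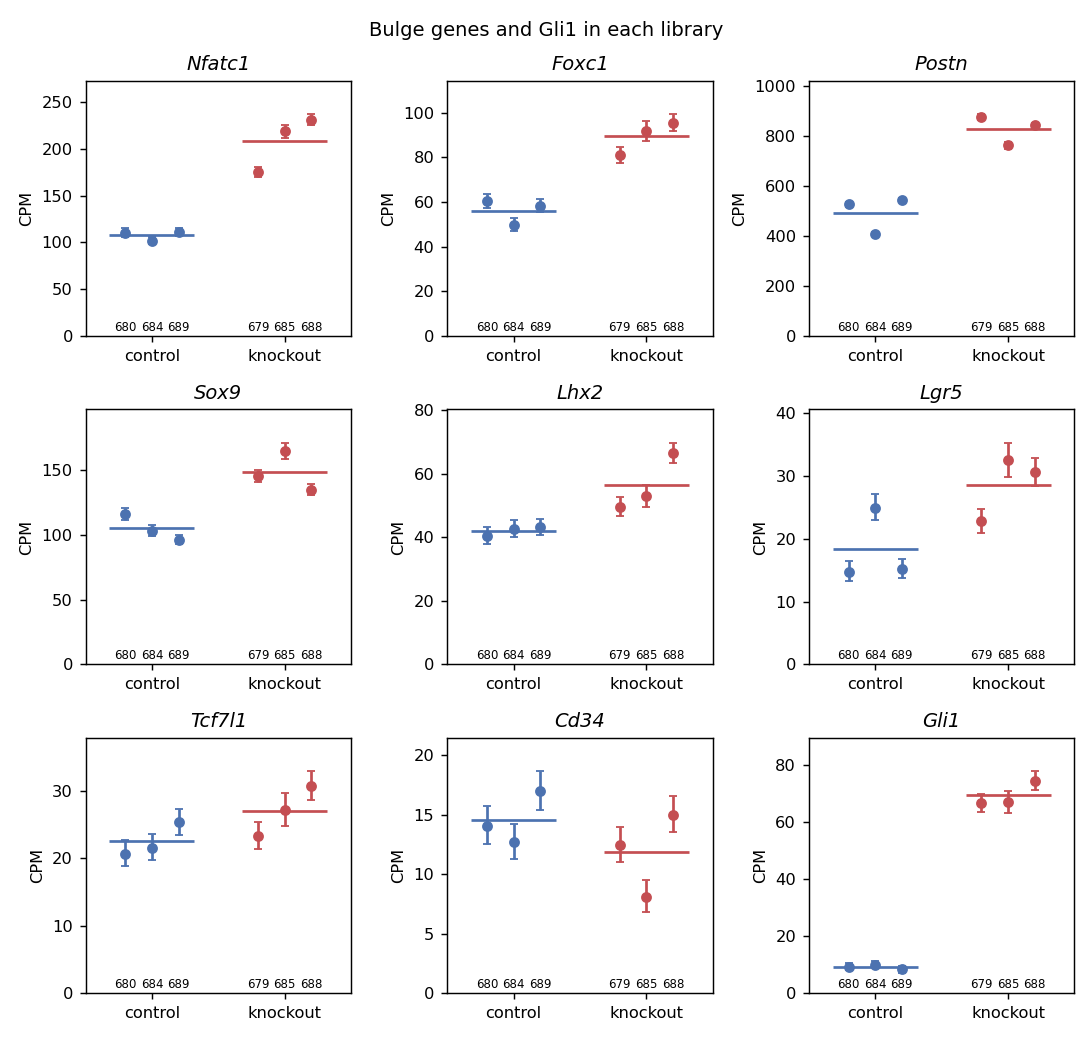
CPM of each bulge gene and of Gli1 in the 6 libraries. Points are libraries labelled by the digits of their tag, error bars are exact 95% Poisson intervals that cover counting error only, and horizontal lines are group means. Nfatc1, Foxc1, Postn, Sox9, Lhx2 and Gli1 have every knockout library above every control library, while Lgr5, Tcf7l1 and Cd34 overlap.

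Gli1 was measured as the yardstick of Hedgehog output. It read 66.7 (DE679), 67.1 (DE685) and 74.5 CPM (DE688) in knockout libraries and 9.23 (DE680), 9.96 (DE684) and 8.25 CPM (DE689) in control libraries. The knockout libraries lay far above the controls, and the lowest knockout library exceeded the highest control by 570%. On the log2 scale the change was 2.93 (SE 0.10, edgeR adjusted p = 1.77e-05). Arhgap9 and Gm47200, on the other strand, share exon sequence with Gli1. The strand setting of the counting is not given in the sources used here, so part of these counts is uncertain.

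Among the transcription factors, Nfatc1, which holds bulge stem cells in quiescence, rose most. Nfatc1 (chromosome 18, 80606205 to 80713071, minus strand, GRCm38) read 175 (DE679), 218 (DE685) and 231 CPM (DE688) in knockout libraries and 110.5 (DE680), 102 (DE684) and 111 CPM (DE689) in control libraries. The control libraries were close together, the knockout libraries were spread over a wider range, and the lowest of them still exceeded the highest control by 57.1%. The change was 0.95 on the log2 scale (SE 0.10, 95% interval 0.71 to 1.19, edgeR adjusted p = 0.00771). It passed in each of the 6 fits without 1 library. Within the 4 libraries without Y-linked transcripts the difference in log2 mean CPM was 0.87, and in the pair with them 1.10; a fit of those 4 libraries alone gave an edgeR adjusted p of 0.0638.

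Foxc1, a forkhead factor that restrains the activation of bulge stem cells, also rose. Foxc1 (chromosome 13, 31806633 to 31812476, plus strand) read 81.1 (DE679), 91.7 (DE685) and 95.5 CPM (DE688) in knockout libraries and 60.3 (DE680), 49.9 (DE684) and 58.3 CPM (DE689) in control libraries. Each group stayed within a narrow range, with means of 89.4 ± 7.46 and 56.2 ± 5.55 CPM (SD, n = 3 each), and the groups did not overlap. On the log2 scale the rise was 0.67 (SE 0.09, 95% interval 0.45 to 0.89, edgeR adjusted p = 0.0186). It kept its call without DE679, DE680 or DE684. Without DE685 the adjusted p was 0.0664, without DE688 0.0784 and without DE689 0.0509. In the 4 libraries without Y-linked transcripts the log2 difference of means was 0.57 (edgeR adjusted p = 0.0922 in a fit of these alone), and in the pair with them 0.88.

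Sox9, needed to specify and keep follicle stem cells, missed the threshold by a small margin. Sox9 (chromosome 11, 112782224 to 112787760, plus strand) read 145 (DE679), 165 (DE685) and 135 CPM (DE688) in knockout libraries and 116 (DE680), 103 (DE684) and 96.4 CPM (DE689) in control libraries. Every knockout library lay above every control, by 16.2% at the narrowest. On the log2 scale Sox9 differed by 0.50 (SE 0.10, 95% interval 0.27 to 0.72, edgeR adjusted p = 0.0551). The call turned with the method: the adjusted p was 0.0475 with upper-quartile factors, 0.0416 with sex as a covariate and 0.000183 in DESeq2. The other 13 of the 16 alternatives did not call Sox9. Their highest edgeR adjusted p was 0.174, in the fit of the 4 libraries without Y-linked transcripts. In those libraries the log2 difference of means was 0.40, and in the pair with such transcripts 0.68.

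Lhx2, a LIM homeodomain factor that keeps the bulge in order, showed the same separation with a smaller difference. Lhx2 (chromosome 2, 38339281 to 38369733, plus strand) read 49.6 (DE679), 53.0 (DE685) and 66.5 CPM (DE688) in knockout libraries and 40.4 (DE680), 42.6 (DE684) and 43.2 CPM (DE689) in control libraries. The controls were tight (42.1 ± 1.48 CPM, SD, n = 3), and DE688 stood highest in the knockout. The log2 fold change was 0.42 (SE 0.11, 95% interval 0.16 to 0.68, edgeR adjusted p = 0.112), and leaving out DE688 lowered it to 0.28. DESeq2, alone of the 16 alternatives, called Lhx2, with an adjusted p of 0.0189.

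Tcf7l1, also called Tcf3, a repressor of Wnt target genes in the bulge, did not separate the groups. Tcf7l1 (chromosome 6, 72626378 to 72789254, minus strand) read 23.4 (DE679), 27.2 (DE685) and 30.7 CPM (DE688) in knockout libraries and 20.7 (DE680), 21.6 (DE684) and 25.3 CPM (DE689) in control libraries. The lowest knockout library fell below the highest control. Tcf7l1 differed by 0.26 on the log2 scale (SE 0.12, 95% interval −0.02 to 0.55, edgeR adjusted p = 0.294). Exons of Gm15401 overlap Tcf7l1 on the opposite strand.

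Postn encodes periostin, a secreted matrix protein, and was the most abundant member. Postn (chromosome 3, 54361109 to 54391037, plus strand) read 874 (DE679), 762 (DE685) and 841 CPM (DE688) in knockout libraries and 526 (DE680), 408 (DE684) and 543 CPM (DE689) in control libraries. All knockout libraries were above all controls, by 40.4% at the narrowest, and DE684 was the lowest. This was a rise of 0.75 on the log2 scale (SE 0.11, 95% interval 0.48 to 1.01, edgeR adjusted p = 0.0253). It lost the threshold without DE679 (adjusted p = 0.115), DE680 (0.0715), DE685 (0.0546) or DE688 (0.103), and kept it without DE684 or DE689. Within the 4 libraries without Y-linked transcripts the log2 difference of means was 0.68 (edgeR adjusted p = 0.0223), and in the pair with them 0.90.

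Postn is also made by fibroblasts, so their markers are given beside it. Of the 12 fibroblast markers listed, 11 were in the table and 8 were tested, 4 with positive and 4 with negative fold changes, and only Dcn passed. Over all genes tested, 1.6% passed and 49.3% were higher by sign. Dcn, a small proteoglycan, averaged 119 ± 6.19 CPM in knockout and 31.9 ± 10.1 in control libraries (SD, n = 3 per group), a rise of 1.90 on the log2 scale (SE 0.21, adjusted p = 0.00782 in edgeR). Thy1, a surface protein of fibroblasts and other cells, averaged 43.2 ± 6.33 against 23.9 ± 4.92 CPM with no overlap (0.85, SE 0.17, edgeR adjusted p = 0.0560). Col6a1, a collagen VI chain, averaged 76.3 ± 13.9 against 58.9 ± 14.7 CPM with overlap (0.37, SE 0.20, edgeR adjusted p = 0.350). The fibrillar collagens were lower in level and had negative fold changes. Col1a1 had 5.40 ± 0.932 CPM in the knockout and 7.06 ± 4.81 in the control (−0.38, SE 0.43, edgeR adjusted p = 0.663). Col3a1 had 4.18 ± 0.299 and 6.07 ± 3.52 (−0.54, SE 0.39, edgeR adjusted p = 0.489). Fbn1 was lower in the knockout with no overlap, at 1.11 ± 0.233 against 2.21 ± 0.709 CPM (−0.99, SE 0.32, edgeR adjusted p = 0.166). Lum and Dpt did not pass the filter on low counts, with at most 8 counts in a library. Summed over the list, the markers reached 235 to 276 CPM in the knockout and 129 to 147 in the control, with Dcn the largest entry in the knockout. The part of other cells in the Postn difference was not tested.

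The surface markers Cd34 and Lgr5 did not pass. Lgr5, a receptor for R-spondins that marks the lower bulge and hair germ, lies on chromosome 10 (115450311 to 115587780, minus strand). It read 22.8 (DE679), 32.5 (DE685) and 30.6 CPM (DE688) in knockout libraries and 14.8 (DE680), 25 (DE684) and 15.2 CPM (DE689) in control libraries. The groups overlapped through 1 library, the control DE684, which exceeded DE679. The log2 fold change was 0.64 (SE 0.22, 95% interval 0.13 to 1.16, edgeR adjusted p = 0.187); without DE684 it was 0.93 (adjusted p = 0.0648). Among the libraries without Y-linked transcripts the log2 difference of means was 0.83, and in the pair with them 0.38. DESeq2, alone of the 16 alternatives, called Lgr5, with an adjusted p of 0.0454.

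Cd34, the sialomucin by which mouse bulge cells are sorted, was the single member with a negative fold change. Cd34 (chromosome 1, 194938819 to 194961279, plus strand) read 12.4 (DE679), 8.09 (DE685) and 15 CPM (DE688) in knockout libraries and 14.1 (DE680), 12.7 (DE684) and 17 CPM (DE689) in control libraries. The groups overlapped and DE685 stood lowest. The log2 fold change was −0.29 (SE 0.22, 95% interval −0.81 to 0.22, edgeR adjusted p = 0.504), and leaving out DE685 brought it to −0.09. The interval leaves room for a fall by 0.81 and for a rise of 0.22, and the upper bound lies below the lower bounds for Nfatc1, Foxc1, Postn and Sox9; the difference between genes was not tested. Exons of Gm16897 overlap Cd34 on the opposite strand.

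Endothelial and mast cells carry Cd34 too. All 8 endothelial markers tested had negative fold changes, none passing, and 2 of the 10 listed were not tested. Tek was negative by sign only (−0.0, SE 0.38), with means of 0.645 CPM in the knockout and 0.644 in the control. Among all genes tested, 1.6% passed and 49.3% were higher by sign. The summed level of the endothelial markers was 4.97 to 7.0 CPM in the knockout and 7.38 to 11.6 CPM in the control. Tie1, a receptor tyrosine kinase of vessels, had the largest difference, with 0.233 ± 0.186 against 0.969 ± 0.300 CPM (SD, n = 3 each; log2 fold change −1.95, SE 0.56, edgeR adjusted p = 0.133). None of the 7 mast cell markers was listed in the table. The part of endothelial cells in the Cd34 values was not tested.

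**Figure D2:**
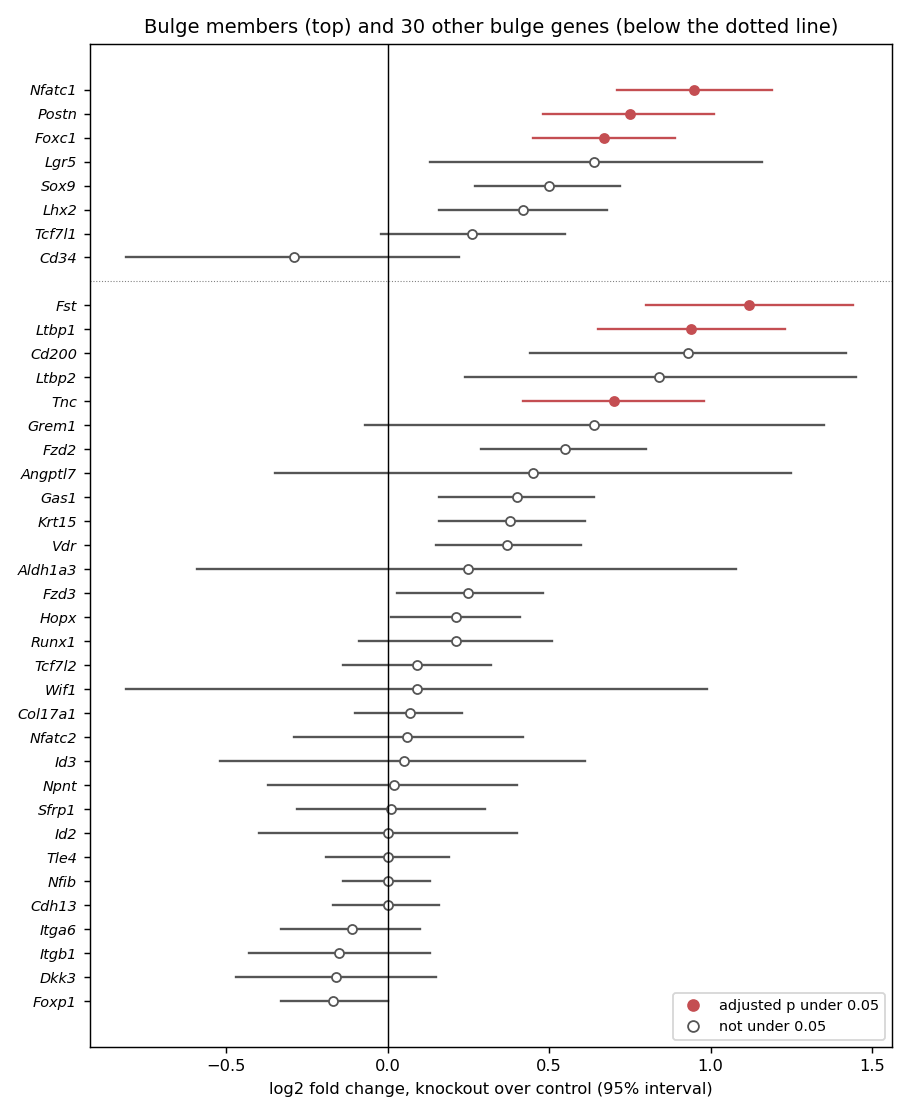
Log2 fold change of knockout over control with its 95% interval for the 8 members (above the dotted line) and 30 other bulge genes (below it); filled red points passed an adjusted p under 0.05. Nfatc1, Postn, Foxc1, Fst, Ltbp1 and Tnc passed, and Cd34 is the only member with a negative value.

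Per kilobase of exon, Postn was the most abundant member, at 94.9 ± 6.61 CPM per kilobase in the knockout and 56.6 ± 8.45 in the control (SD, n = 3 each). Sox9 followed with 35.9 ± 3.68 and 25.5 ± 2.43, and Nfatc1 with 27.9 ± 3.93 and 14.4 ± 0.698. Foxc1 (9.61 ± 0.949) and Lhx2 (9.58 ± 0.337) did not differ beyond their spread in the control, and in the knockout they had 15.3 ± 1.28 and 12.8 ± 2.03. Tcf7l1 came next, at 6.91 ± 0.939 in the knockout and 5.75 ± 0.627 in the control. Cd34 and Lgr5 were lowest and within each other's spread in the control, at 2.00 ± 0.301 and 1.79 ± 0.561. In the knockout they stood in the other order, with Cd34 at 1.62 ± 0.478 and Lgr5 at 2.79 ± 0.501. Gli1 was at 1.83 ± 0.172 in the control, a level near those of Lgr5 and Cd34, and at 13.9 ± 0.884 in the knockout, between Lhx2 and Foxc1.

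Set beside Gli1, the 8 genes fall into those that separated the groups as Gli1 did and those that did not. Nfatc1, Foxc1, Postn, Sox9 and Lhx2, 5 of 8, had every knockout library above every control, as Gli1 did; this pattern was found in 12.8% of all genes tested. Lgr5, Tcf7l1 and Cd34 did not have it. Between neighbouring tags (DE679 with DE680, DE685 with DE684, DE688 with DE689), Lgr5 and Tcf7l1 were still higher in the knockout library each time, and Cd34 was lower each time. The labels do not state such pairs, the share of all genes with such a direction was not counted, and no test of it was made. The Gli1 values form 2 clusters, 1 per genotype, so a correlation over the 6 libraries would restate the genotype difference and none is given, and 3 libraries a group are too few for one within groups. The separation was also far smaller than that of Gli1, whose fold change was 7.60.

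Within the knockout, DE679 and DE685 had nearly equal Gli1 (95% Poisson intervals 63.4 to 70.1 and 63.3 to 71.0 CPM), and DE688 was higher by 11.7% over DE679 (71.2 to 77.9 CPM). Nfatc1, Foxc1, Lhx2 and Tcf7l1 had the same order, with DE688 highest and DE679 lowest, and the share of all genes with that order was not counted. DE688 exceeded DE679 by 31.9% for Nfatc1, 17.7% for Foxc1, 34.1% for Lhx2 and 31.5% for Tcf7l1. The 95% Poisson intervals of DE685 and DE688 overlapped for Nfatc1, Foxc1 and Tcf7l1, and those of DE679 and DE685 overlapped for Lhx2 and Tcf7l1. Cd34 was highest in DE688 too, but lowest in DE685. Postn was highest in DE679, and Sox9 and Lgr5 were highest in DE685. Within the control, none of the 8 followed the order of Gli1, whose 3 values overlapped in their counting intervals (8.02 to 10.6 CPM in DE680, 8.71 to 11.3 in DE684 and 7.17 to 9.45 in DE689). Thus Tcf7l1 and Cd34 were, like Gli1, highest in DE688 within the knockout but did not separate the groups. Postn and Sox9 separated the groups but were highest in other libraries. The nearly equal Gli1 of DE679 and DE685 gives no order between these libraries. Replicates have no order of their own, and no test was made of these ranks.

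**Figure D3:**
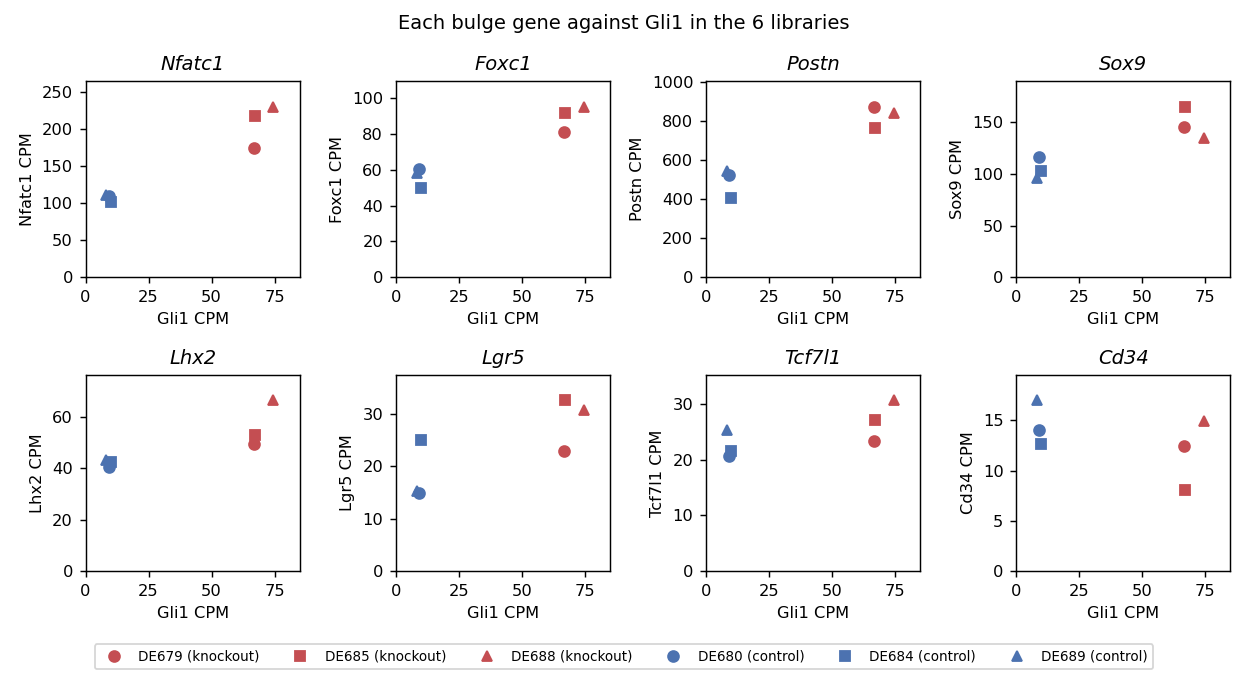
CPM of each bulge gene (vertical axes, each starting at 0) against Gli1 CPM (horizontal axes) in the 6 libraries; red is knockout, blue is control, and the shape identifies the library. Gli1 splits the libraries into a cluster at 8.25 to 9.96 CPM and another at 66.7 to 74.5 CPM; Nfatc1, Foxc1 and Postn step up with it, and Cd34 does not.

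Of 30 other genes known from the bulge and its niche, 3 rose and 0 fell in the edgeR test, with 23 positive and 7 negative fold changes and a median of 0.15; 12 had an unadjusted p under 0.05. Over all genes tested, 1.24% were called higher, 49.3% were higher by sign and 19% had an unadjusted p under 0.05. Fst, the activin and BMP antagonist follistatin, read 46.1 (DE679), 44.4 (DE685) and 49.2 CPM (DE688) in knockout libraries and 25.2 (DE680), 22.0 (DE684) and 17.1 CPM (DE689) in control libraries. Its groups did not overlap (log2 fold change 1.12, SE 0.14, edgeR adjusted p = 0.0116). Ltbp1, which holds latent TGF-beta in the matrix, had 24.7, 29.6 and 32.6 CPM in the knockout libraries and 14.9, 13.7 and 16.7 in the controls (0.94, SE 0.13, edgeR adjusted p = 0.0158). Tnc, the matrix glycoprotein tenascin C, had 91.0, 64.8 and 73.0 CPM against 44.1, 49.3 and 47.6 (0.70, SE 0.12, edgeR adjusted p = 0.0394). Fst lost its call without DE688, Ltbp1 without DE680, DE684, DE685 or DE688, and Tnc in every fit without 1 library other than the one without DE685.

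Among those of the 30 that did not pass, Cd200, an immune-regulatory surface protein of bulge cells, had 43.1, 33.0 and 38.5 CPM in the knockout libraries and 23.0, 13.4 and 23.9 in the controls, also with no overlap (0.93, SE 0.21, edgeR adjusted p = 0.0858). Krt15, a keratin of the bulge and of basal cells, had 1881 ± 171 CPM against 1443 ± 142 CPM (SD, n = 3 each; 0.38, SE 0.10, edgeR adjusted p = 0.104). Both Cd200 and Krt15 passed in DESeq2 and with sex as a covariate. Cd200 also passed in the fit of only the libraries without Y-linked transcripts, where Fst, Ltbp1 and Tnc did not. Nfatc2, a relative of Nfatc1, differed by 0.06 (95% interval −0.29 to 0.42), and Tcf7l2, a relative of Tcf7l1, by 0.09 (−0.14 to 0.32). The Wnt inhibitor Sfrp1 (0.01, 95% interval −0.28 to 0.30), Dkk3 (−0.16, −0.47 to 0.15) and the transcription factor Nfib (0.00, −0.14 to 0.13) had intervals on both sides of 0. Cd200 and Krt15 are named here after their values were seen, as are Nfatc2, Tcf7l2, Sfrp1, Dkk3 and Nfib.

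By the pattern over the 6 libraries (root mean square distance of centred log2 CPM, among 13665 genes tested with a mean of at least 1 CPM), Nfatc1 had Ltbp1 as a near neighbour, at a distance of 0.055. Foxc1 was nearest to Efnb2 (0.081), an ephrin ligand, and Crip1 (0.083), and Postn to Crip1 (0.076) and 3000002C10Rik (0.082). Sox9 lay nearest to Epb41l4a (0.044) and Fam131a (0.052). For Lhx2 the nearest were Lpcat4 (0.042) and Ogg1 (0.043), and for Tcf7l1 Plxdc1 (0.047) and Arl4c (0.056). Lgr5 had no neighbour as close, with Adgra3 at 0.124 and Acss1 at 0.126, and Cd34 had Gm49320 (0.089) and C330013E15Rik (0.10). Within the 8 members, Foxc1 and Postn were nearest to each other (0.133), as were Lhx2 and Tcf7l1 (0.110), and Cd34 was farthest from its nearest member (0.388). These distances describe 6 libraries in 2 groups and say nothing of shared control.

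Markers of neighbouring compartments give the setting of these changes. All 9 upper follicle markers had positive fold changes, with a median of 0.61, and Plet1 and Defb6 passed. The shares over all genes tested, for this list and those that follow, were 1.6% called, 49.3% positive and 19% at an unadjusted p under 0.05. Plet1, a surface protein of the junctional zone above the bulge, had 110 ± 0.468 CPM in the knockout and 62.3 ± 2.21 in the control (SD, n = 3 each; 0.82, SE 0.05, edgeR adjusted p = 0.00137). Defb6, a defensin, had 269 ± 12.5 against 149.8 ± 34.2 CPM (0.85, SE 0.15, edgeR adjusted p = 0.0443). Of 8 interfollicular basal markers, 0 passed in edgeR and 3 had an unadjusted p under 0.05; the median was 0.05, and Lamb3 had the largest difference (0.27, SE 0.08, edgeR adjusted p = 0.128). All 10 suprabasal markers had negative fold changes, with a median of −0.29, and 0 passed in edgeR (5 at an unadjusted p under 0.05); Calm4 differed most (−0.47, SE 0.09, edgeR adjusted p = 0.0560). Sebaceous markers had a median of −0.01 over 8 genes, led by Mgst1 (−0.32, SE 0.10, edgeR adjusted p = 0.148). The part of a shift between these compartments in the bulge gene differences was not tested.

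Markers of other cell types were scarcer. Melanocyte markers had positive fold changes in 7 of 7, with 0 called in edgeR and 3 at an unadjusted p under 0.05, and summed to 81.0 to 120 CPM in the knockout and 56.0 to 81.0 CPM in the control; Tyrp1 differed by 0.72 (SE 0.34, edgeR adjusted p = 0.293). Immune markers summed to 57.1 to 139 CPM and 30.1 to 115 CPM, were positive in 8 of 8 tested, and were led by Cd207 of Langerhans cells (0.96, SE 0.69, edgeR adjusted p = 0.488). Dermal papilla and sheath markers summed to 133 to 206 CPM against 145 to 279 CPM. Most of this came from Prlr (122 ± 0.563 CPM in the knockout and 140 ± 22.5 in the control, SD, n = 3 each) and Hhip (45.4 ± 34.8 and 46.05 ± 59.5 CPM). Hhip thus varied widely within both groups. Each other marker of that list averaged at most 1.61 CPM in either group. By sign, 5 of 6 tested were negative, among them Hhip (−0.02, SE 1.12) and Crabp1 (−0.0, SE 0.57). Rspo3 differed by −0.94 (SE 0.47, edgeR adjusted p = 0.319). Schwann cell markers reached at most 23.6 CPM in sum, with Ngfr at 0.63 (SE 0.44, edgeR adjusted p = 0.476), and muscle markers at most 6.89 CPM, with Tagln at 0.13 (SE 0.53, edgeR adjusted p = 0.921). Of the 16 lists, the bulge members, the other bulge genes, the upper follicle markers and the fibroblast markers had every knockout sum above every control sum, and the endothelial markers had every knockout sum below. Single abundant genes weigh heavily in such sums. Postn averaged 826 CPM in the knockout and 492 in the control, Dcn 119 and 31.9, and Krt15 1881 and 1443. By sign, 7 of 8 bulge members, 23 of 30 other bulge genes, 9 of 9 upper follicle markers and 4 of 8 fibroblast markers tested were higher, against 49.3% of all genes tested. The part of these cells in the bulge gene differences was not tested.

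**Figure D4:**
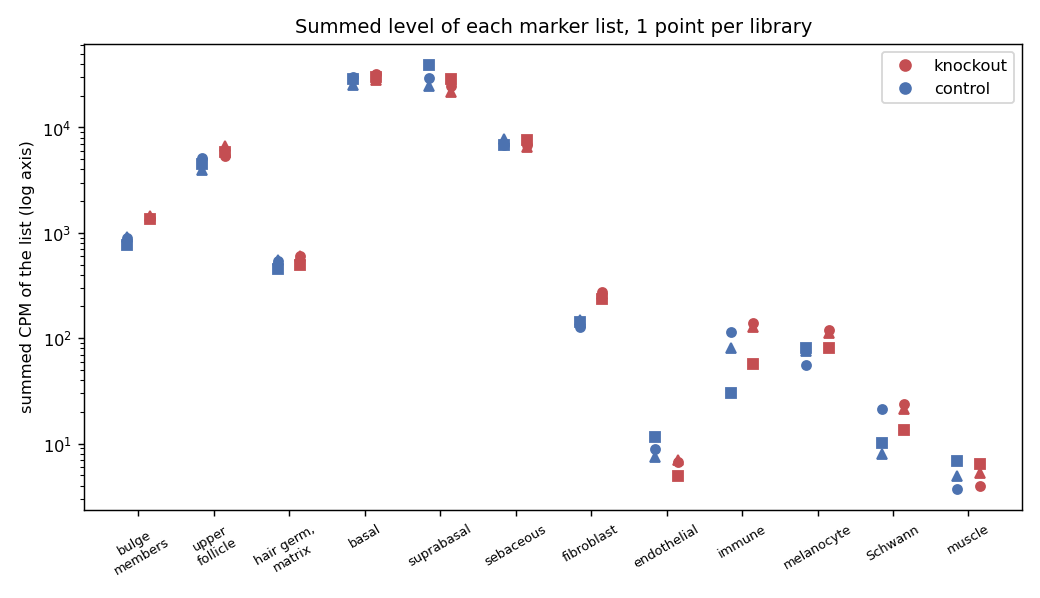
Summed CPM of each marker list (log axis) with 1 point per library, control in blue and knockout in red. The bulge members sum to 1358 to 1446 CPM in the knockout and 765 to 910 CPM in the control, while endothelial, Schwann and muscle markers stay below 24 CPM in every library.

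Leaving out each library in turn kept the sign of all 8 members. Nfatc1 was called in 6 of these 6 fits, Foxc1 in 3, Postn in 2, and the other 5 members in 0. Over all alternatives tried, the log2 fold change ranged from 0.87 to 1.06 for Nfatc1, from 0.57 to 0.74 for Foxc1 and from 0.63 to 0.83 for Postn. The widest range of a member was that of Lgr5, from 0.51 to 0.93, and Cd34 moved from −0.50 to −0.09.

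**Figure D5:**
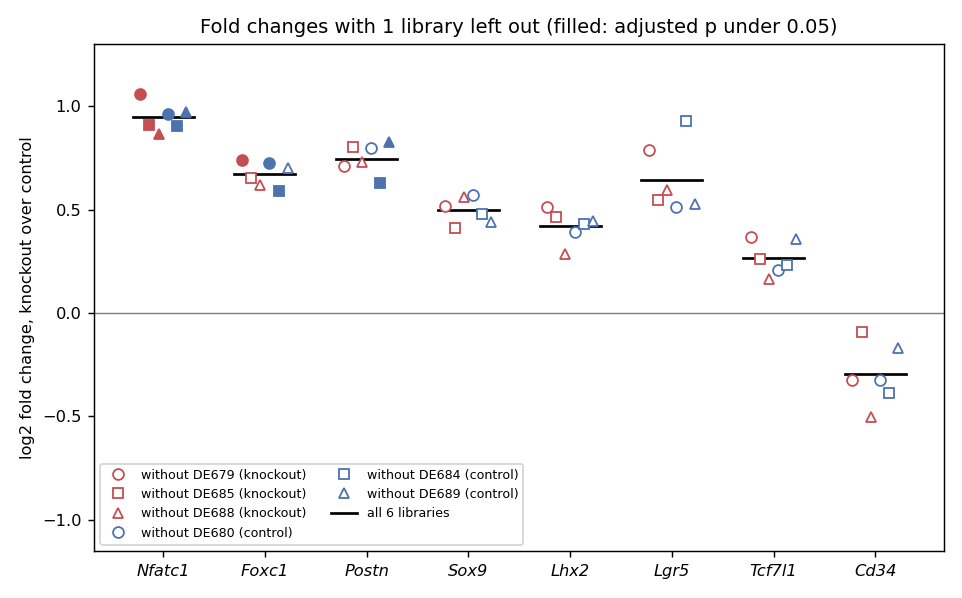
Log2 fold change of each bulge gene with 1 library left out; black bars are the values from all 6 libraries, the shape and colour name the library left out, and filled symbols had an adjusted p under 0.05. Nfatc1 stays filled throughout, Foxc1 in 3 fits and Postn in 2, and Lgr5 reaches 0.93 without DE684.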

How the data were processed

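RNA was sequenced from 6 samples, and each library was assigned to its group by its column name. The authors deposited estimated counts per gene, which were rounded to whole numbers first, and a normalized signal per gene, in which the deposited values follow TMM-scaled CPM within 0.35% per library plus 0.001. Per the submitters' processing notes, bcl2fastq 2.20, cutadapt 1.18, STAR 2.7.0f and Partek were used with build mm10; the counting method and its strand setting are not given in the sources used here. The design assumed raw counts, and its test was applied unaltered to the rounded values. Genes were filtered with filterByExpr, scaled with TMM and fitted with glmQLFit and glmQLFTest (edgeR 4.0.16), genotype being the only term, and p-values were adjusted by Benjamini-Hochberg over 15422 genes. The fit was tested on simulated data. Exon lengths and overlaps came from GENCODE M21 (GRCm38), whose coordinates equal the table's for all 8 members, with the end taken as 1 base before the listed stop. With 3 libraries per group an exact permutation test cannot go below 0.1. The pattern distance used a pseudocount of 0.5. No library was a copy of another of its group (chi-square over degrees of freedom 12.2 to 39.9). The labels name no molecular identifiers, so intervals from counts cover counting error only.

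The members and the lists were chosen with earlier results of these data known. The rule for naming genes took the 8 members and Gli1, every gene of another list that passed, otherwise the gene of that list with the largest difference, and the 2 genes nearest in pattern to each member; 1 gene so chosen is not reported here. Outside this rule, Gpr161 is given as the targeted gene, and Krt5, Col1a1, Col3a1, Col6a1, Fbn1, Thy1, Lum, Dpt, Tek, Prlr, Hhip, Crabp1, Krt6a, Krt75, Bmp2, Bmp6 and Shh are named from the lists after their values were seen. Alternatives were other scaling factors, other filters, DESeq2 1.42.0, limma 3.58.1 with voom or on log2 of the authors' values, a sex covariate and each library left out; a fit of only the libraries without Y-linked transcripts was added after seeing the data.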

Additional observations from a re-analysis of the deposited data

How the results depend on the processing

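All 8 members and Gli1 kept the sign of their fold change under each of the 16 alternatives, and Gli1 passed in all of them. The members called were 3, against 6 in DESeq2 (Lhx2, Lgr5 and Sox9 added) and 1 to 3 with a library left out, the 1 being Nfatc1 without DE685 or without DE688. The other bulge genes called were 3, against 9 in DESeq2, 8 with a sex covariate and 0 (without DE688) to 3 with a library left out. Across all genes tested, 247 were called, against 872 in DESeq2 (64.8% of them higher, against 77.7%), 409 with a sex covariate and 69 (without DE688) to 121 (without DE684) with a library left out. In only the 4 libraries without Y-linked transcripts, an alternative chosen after seeing the data, 1 member (Postn), 1 other bulge gene (Cd200) and 87 genes of the table were called. Fits without some libraries also have fewer replicates. The cause of these differences in count was not tested, for DESeq2 and the covariate as well. No paired analysis was possible because the columns carry none of the replicate numbers of the labels. Depth limits the lowest genes: 3 counts equal 0.117 to 0.173 CPM in a library, and Cd34 in DE685 rests on 140 counts.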

Other observations

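Of 7 genes tested from the inner bulge layer and the signals that hold stem cells quiescent, 6 had positive fold changes, with a median of 0.14, and 1 rose: Timp3, an inhibitor of metalloproteinases, with 166, 159 and 184 CPM in DE679, DE685 and DE688 against 122, 108 and 103 in DE680, DE684 and DE689 (log2 fold change 0.61, SE 0.08, edgeR adjusted p = 0.0178). For comparison, 1.6% of all genes tested passed and 49.3% were higher by sign. The inner bulge keratins Krt6a (0.07, 95% interval −0.36 to 0.50) and Krt75 (0.14, −0.49 to 0.76) had intervals on both sides of 0. Bmp6, a quiescence signal of the niche, had 14.5 ± 5.39 CPM against 10.1 ± 3.57 (SD, n = 3 each; 0.52, SE 0.32, edgeR adjusted p = 0.415). Bmp2, another BMP ligand, was the single gene of the 7 with a negative fold change: it had 15.6, 19.8 and 18 CPM in the knockout libraries, all below the 21.1, 20.9 and 24.9 CPM of the controls (−0.33, SE 0.12, edgeR adjusted p = 0.197).

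Of 9 hair germ and matrix genes tested, 5 had positive and 4 negative fold changes, and 0 passed in edgeR, with 3 at an unadjusted p under 0.05. The shares over all genes tested were 49.3% positive, 1.6% called and 19% at an unadjusted p under 0.05. Lef1, the Wnt effector of the growing follicle, differed most, with 11.7, 5.72 and 9.41 CPM in the knockout libraries against 2.26, 5.05 and 2.94 in the controls (1.39, SE 0.35, edgeR adjusted p = 0.105). The groups did not overlap, although DE685 and DE684 were close. Shh, the ligand of the pathway, did not pass the filter on low counts, with at most 15 counts in a library, and was not tested. It had 0.085, 0.058 and 0.156 CPM in DE679, DE685 and DE688, all below the 0.665, 0.307 and 0.516 CPM of DE680, DE684 and DE689. The knockout values lie near the 0.117 to 0.173 CPM that 3 counts equal.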
